A study of Homo sapiens with 6 samples.

Results

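The 10 alpha and beta tubulin genes were followed in polyadenylated RNA of HEK293T cells, a human embryonic kidney line, in which GLO1 had been knocked out. They were 6 beta genes (TUBB, TUBB2A, TUBB2B, TUBB3, TUBB4B and TUBB6) and 4 alpha genes (TUBA1A, TUBA1B, TUBA1C and TUBA4A). Their rows were taken from the 6 count tables by exact gene symbol, which found 10 of 10 among 56832 rows, and all 10 passed the filter on low counts that left 17415 genes. The members were chosen by family, with their CPM and log2 fold changes in the MGO against untreated contrast already known, so their differences in it are given as a description, with no test. The product of GLO1, glyoxalase 1, begins the detoxification of methylglyoxal (MGO), a reactive dicarbonyl that arises from glycolysis. Treated cells had 0.2 mM MGO in their medium overnight (3 libraries, numbered 1, 3 and 4), and the others were untreated (3 libraries, numbered 1, 2 and 4). All 6 libraries came from GLO1 KO cells, no wild-type library was used here, and the labels do not say whether the knockout was 1 clone. By its title the series concerns how glycation of histone H3 and H3K4me3, a mark of active promoters, oppose each other.

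Alpha and beta tubulin form the heterodimers that polymerise into microtubules. Cells adjust the mRNAs of these genes to the amount of free heterodimer: when free tubulin is plentiful, the factor TTC5 recognises the first residues of a tubulin chain as it leaves the ribosome, and SCAPER then brings the CCR4-NOT deadenylase to the mRNA being translated. The isotypes differ mainly at the end of the chain, which protrudes from the microtubule and carries most of the family's modifications.

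The start of the chain is what that pathway reads, and the reading frames of all 10 genes opened alike in the main coding transcript chosen for each. The first 30 coding bases, from GENCODE release 29 on GRCh38, are shown because they hold that start, with the codons after the initiator ATG, codons 2 to 4, in capitals.
TUBB: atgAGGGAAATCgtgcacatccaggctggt
TUBB4B: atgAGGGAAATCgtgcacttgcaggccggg
TUBB2A: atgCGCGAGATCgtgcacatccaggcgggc
TUBB2B: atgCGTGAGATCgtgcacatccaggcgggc
TUBB6: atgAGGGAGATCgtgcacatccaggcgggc
TUBB3: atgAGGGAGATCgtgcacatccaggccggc
TUBA1A: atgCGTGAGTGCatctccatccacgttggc
TUBA1B: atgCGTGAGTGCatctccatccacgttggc
TUBA1C: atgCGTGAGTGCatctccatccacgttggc
TUBA4A: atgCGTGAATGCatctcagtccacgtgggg
The capitals encode arginine, glutamate and isoleucine in the 6 beta genes, and arginine, glutamate and cysteine in the 4 alpha genes. The bases differ where the residues do not: TUBB and TUBB4B shared their capitals, TUBB3 and TUBB6 shared theirs, and TUBB2A and TUBB2B opened the arginine codon with CG where the other beta genes had AG. Of 19585 genes with an annotated coding start, 19 began with one of these 2 residue strings in at least 1 transcript, and all 19 are alpha or beta tubulin genes. Apart from the 10 members they were TUBA3C, TUBA3D, TUBA3E, TUBA8, TUBAL3, TUBB1, TUBB4A, TUBB8 and TUBB8P12. Among the members, TUBB, TUBB3, TUBA1A, TUBA1C and TUBA4A also have annotated coding transcripts with another start, and gene counts do not separate transcripts.

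The MGO libraries held 19195920 to 21544749 counts and the untreated libraries 41002134 to 45910040, so the MGO values rest on 0.455 times the depth on average. Mitochondrial genes took 5.34% to 8.17% of counts in MGO libraries and 4.20% to 5.42% in untreated libraries, highest in the library numbered 1 of each group. Every pair of libraries within a group differed by more than sampling noise, with a chi-square of 1.88 to 14.7 per degree of freedom over genes. Nothing in the labels tells whether libraries of a group were separate cultures, and the p-values therefore reflect the spread of these libraries alone, which may be technical. GLO1 itself had 140 ± 5.30 CPM (counts scaled to library size with TMM factors, as all CPM here) in MGO cells and 48.1 ± 2.57 CPM in untreated cells (SD, n = 3 each), and a small lesion in its coding sequence would not be seen in gene counts. All 7 HEK293 markers were detected, with a summed level of 1500 to 1515 CPM in MGO libraries and 1163 to 1196 CPM in untreated libraries. Of these, VIM, KRT8 and KRT18 rose, whereas PAX2, LHX1, NEFL and NEFM fell by at least 2-fold, and the median log2 fold change of the 7 was -1.27. The 6 markers of other cells summed to 11.4 to 12.6 CPM in MGO libraries and 22.8 to 24.2 CPM in untreated libraries, and 4 of them (PTPRC, CD3E, ALB and UMOD) were under the filter.

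Tubulin mRNA took a smaller part of the transcriptome in MGO cells. The 10 genes together had 1580, 1676 and 1679 CPM in MGO libraries 1, 3 and 4, against 4410, 4454 and 4586 CPM in untreated libraries 1, 2 and 4. Their summed level was 1645 ± 56.2 CPM in MGO cells and 4483 ± 91.6 CPM in untreated cells (SD, n = 3 each), 2.73-fold lower with MGO. As a share of all counts, without scaling between libraries, that was 0.158% ± 0.0082 in MGO cells and 0.465% ± 0.0111 in untreated cells. The 6 beta genes summed to 1072 CPM in MGO cells and 3502 CPM in untreated cells (3.27-fold lower), and the 4 alpha genes to 573 CPM in MGO cells and 981 CPM in untreated cells (1.71-fold lower). TUBB weighed heavily in these sums: the other 9 genes together were 1.85-fold lower, and the other 5 beta genes 1.95-fold lower. In bulk RNA, fewer cells that express a gene and less of its RNA per cell cannot be told apart.

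**Figure D1:**
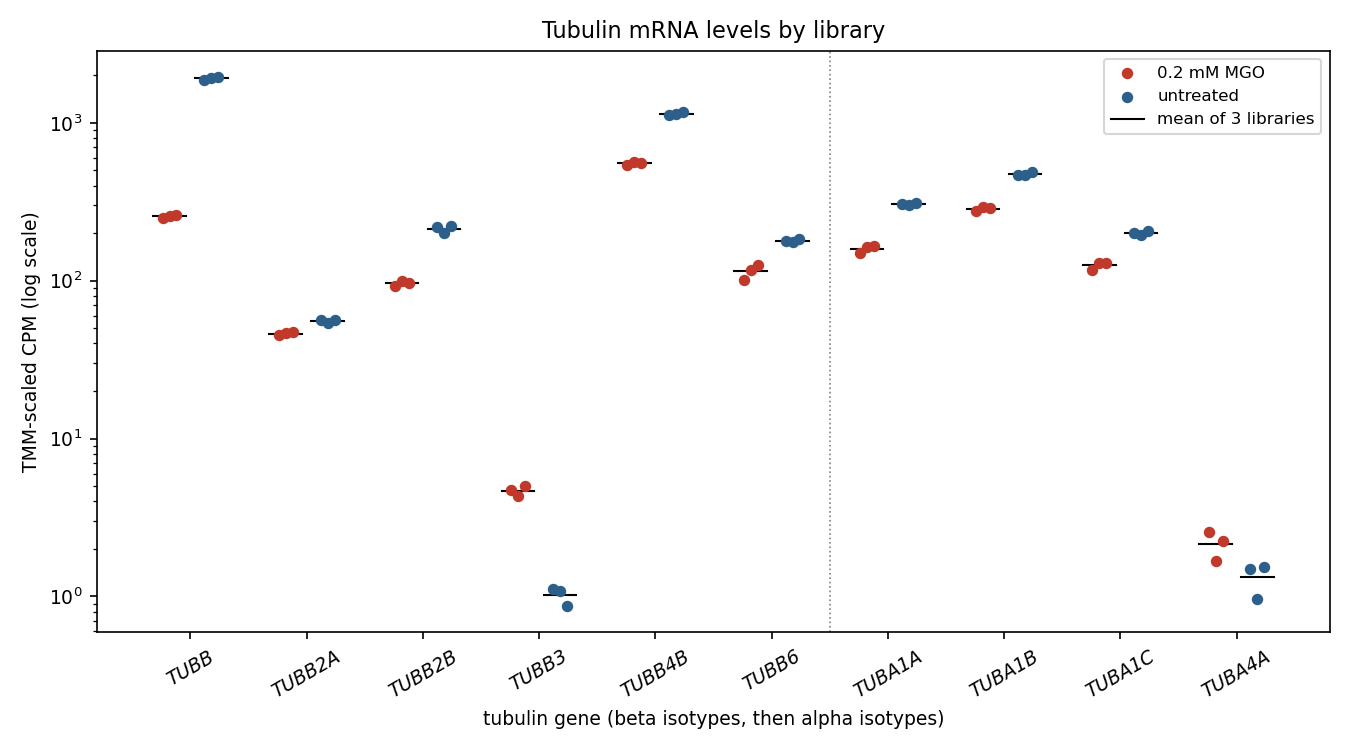
TMM-scaled CPM (log axis) of the 10 tubulin genes in each library, 0.2 mM MGO in red and untreated in blue, with a black line at the mean of 3 libraries. The groups do not overlap for any gene, with MGO lower for 8 genes and higher for TUBB3 and TUBA4A. For TUBA4A the gap between the groups is smaller than the spread within either, and the widest gap among the 8 is that of TUBB (255 CPM in MGO cells and 1912 CPM in untreated cells).

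Gene by gene, 8 members were called lower and 2 higher in the fit over all genes (edgeR quasi-likelihood test, Benjamini-Hochberg adjusted p under 0.05). Since 41.2% of all tested genes were called lower and 41.8% higher, 83.1% in all, and since the contrast was known when the genes were picked, nothing is read from that count. At least 2-fold lower were 3 members (TUBB, TUBB2B and TUBB4B), where 16.7% of all tested genes were, and 1 member, TUBB3, was at least 2-fold higher, where 19.8% of all tested genes were. The MGO libraries all lay below the untreated ones for 8 members, as for 41.7% of all tested genes, and all above for 2 members, as for 41.8%, so that no member overlapped, where 83.5% of all tested genes did not. The median log2 fold change, always MGO over untreated, was -0.70 over the 10 members, -0.84 over the beta genes and -0.70 over the alpha genes, beside 0.01 over all tested genes.

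TUBB, the broadly expressed class I beta isotype (GRCh38 chr6:30720201-30725426, plus strand), was the member with the largest difference. It had 249, 256 and 260 CPM in MGO libraries 1, 3 and 4, against 1866, 1926 and 1943 CPM in untreated libraries 1, 2 and 4. Every MGO library stood far below every untreated library, and the libraries of a group lay close together. The level was 7.50-fold lower in MGO cells (log2 fold change -2.91, SE 0.0357), which placed TUBB at rank 135 of 17415 counted from the lowest log2 fold change. Raw counts, before any scaling, were 4503 to 5466 in MGO libraries and 82740 to 92193 in untreated libraries. On the opposite strand, AL662797.1, not analysed here, shares 538 exon bases with TUBB. The strand setting of the counting is unknown here, so reads of TUBB and AL662797.1 on these bases cannot be told apart.

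By its own row, TUBB2B of the class II pair had the next largest difference among the abundant beta genes. TUBB2B, a beta isotype best known from the developing brain (chr6:3224261-3231730, minus strand), had 91.8, 100.1 and 96.7 CPM in MGO libraries 1, 3 and 4, against 220, 200 and 221 CPM in untreated libraries 1, 2 and 4. It was 2.22-fold lower in MGO cells (log2 fold change -1.15, SE 0.0439), with a wide gap between the groups. Its neighbour TUBB2A (chr6:3153669-3157526, minus strand), an isotype abundant in brain, had 45.04, 46.5 and 46.9 CPM in MGO libraries 1, 3 and 4, against 56.3, 54.2 and 56.4 CPM in untreated libraries 1, 2 and 4. The groups did not overlap, but the gap was the smallest among the members called lower, 1.20-fold (log2 fold change -0.27, SE 0.0448). The coding sequences of these 2 genes were 98.1% identical, with 25 mismatches and a shared run of 725 bases. Of all 100-base windows in annotated transcripts, the length of the reads, 56.4% of those of TUBB2A and 46.2% of those of TUBB2B also occurred in another gene. The sources used here do not give how reads that match both were counted, so the split between them is uncertain. Their sum does not depend on the split, but it would lack shared reads if those were dropped. It was 142 ± 5.01 CPM in MGO cells and 269 ± 13.2 CPM in untreated cells (SD, n = 3 each), 1.89-fold lower. By this sum the pair differed less than TUBB4B, which was 2.05-fold lower.

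TUBB4B, a widely expressed beta isotype that is also a main component of cilia (chr9:137241213-137243707, plus strand), had 544, 563 and 560 CPM in MGO libraries 1, 3 and 4, against 1119, 1131 and 1173 CPM in untreated libraries 1, 2 and 4. All MGO libraries lay at about the same level, below every untreated library, and the difference was 2.05-fold (log2 fold change -1.04, SE 0.034). TUBB6, the class V isotype (chr18:12307669-12344320, plus strand), had 102, 117 and 127 CPM in MGO libraries 1, 3 and 4, against 177, 176 and 182 CPM in untreated libraries 1, 2 and 4. The MGO libraries were spread more widely here than the untreated ones, and the level was 1.55-fold lower (log2 fold change -0.63, SE 0.0587). Exons of TUBB6 share 638 bases with AFG3L2 on the opposite strand, 20.5% of its exon length, and AFG3L2 had 82.1 ± 2.32 CPM in MGO cells and 104 ± 2.72 CPM in untreated cells (SD, n = 3 each).

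TUBB3 went the other way. This class III beta isotype is a standard marker of neurons (chr16:89921392-89938761, plus strand). It had 4.70, 4.35 and 4.99 CPM in MGO libraries 1, 3 and 4, against 1.12, 1.09 and 0.869 CPM in untreated libraries 1, 2 and 4. The lowest MGO library stood well above the highest untreated library, at 4.54-fold overall (log2 fold change 2.18, SE 0.157). Behind these levels are 85, 81 and 105 counts in MGO libraries and 52, 52 and 37 counts in untreated libraries, so the estimate is less precise than for the abundant isotypes. Of its annotated exon bases, 48.1% also lie in another annotated gene on the same strand, AC092143.1, whose values were not used here.

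Among the alpha genes, the 3 abundant isotypes were lower by similar amounts. TUBA1A (chr12:49184796-49189324, minus strand), the main alpha isotype of young neurons, had 149, 164 and 166 CPM in MGO libraries 1, 3 and 4, against 304, 302 and 311 CPM in untreated libraries 1, 2 and 4. That was 1.91-fold lower (log2 fold change -0.94, SE 0.0402), with no MGO library near an untreated one. TUBA1B (chr12:49127782-49131397, minus strand), a broadly expressed isotype, had 276, 294 and 287 CPM in MGO libraries 1, 3 and 4, against 466, 467 and 488 CPM in untreated libraries 1, 2 and 4. Again the groups were clearly apart, at 1.66-fold lower (log2 fold change -0.73, SE 0.0362). TUBA1C (chr12:49188736-49274603, plus strand), which lies beside them and is also widely expressed, had 117, 129 and 130 CPM in MGO libraries 1, 3 and 4, against 199, 196 and 208 CPM in untreated libraries 1, 2 and 4. It was 1.60-fold lower (log2 fold change -0.68, SE 0.0421), and its highest MGO library stayed under its lowest untreated library. The coding sequences of these 3 genes were 95.9% to 97.2% identical. Of their 100-base windows, 9.48% to 37.2% occurred in another gene, leaving out genes that overlap the exons of the one examined. The split among the 3 genes is therefore uncertain too. Clone-named genes on the opposite strand, not analysed here, cover 72.6% of the exon bases of TUBA1B and 19.2% of those of TUBA1C. TUBA1A, TUBA1B and TUBA1C summed to 571 ± 24.8 CPM in MGO cells and 980 ± 23.2 CPM in untreated cells (SD, n = 3 each), 1.72-fold lower. That sum, too, would lack shared reads if those were dropped.

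TUBA4A (chr2:219249711-219278170, minus strand), an alpha isotype found in brain, muscle and platelets, was scarce and higher in MGO cells. It had 2.54, 1.66 and 2.23 CPM in MGO libraries 1, 3 and 4, against 1.49, 0.961 and 1.53 CPM in untreated libraries 1, 2 and 4. The lowest MGO value lay only just above the highest untreated value, and the fold was 1.63 (log2 fold change 0.70, SE 0.205) on 31 to 47 counts in MGO libraries and 46 to 69 counts in untreated libraries. Exons of TUBA4A share 627 bases, 23.4% of its exon length, with STK16 on the opposite strand, which had 38.9 ± 1.55 CPM in MGO cells and 28.0 ± 1.06 CPM in untreated cells (SD, n = 3 each). As the strand setting of the counting is unknown here, reads of TUBA4A and STK16 on these bases cannot be told apart.

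Each member's place among the others was compared per length, as CPM per kilobase of annotated exon. In MGO cells the levels per kilobase were 339 for TUBB4B, 176 for TUBA1B, 75.9 for TUBB, 61.8 for TUBA1A, 47.6 for TUBB2B, 36.9 for TUBB6, 36.2 for TUBA1C, 28.9 for TUBB2A, 1.42 for TUBB3 and 0.802 for TUBA4A. In untreated cells they were 697 for TUBB4B, 569 for TUBB, 291 for TUBA1B, 118 for TUBA1A, 106 for TUBB2B, 58.0 for TUBA1C, 57.3 for TUBB6, 34.9 for TUBB2A, 0.495 for TUBA4A and 0.311 for TUBB3. TUBB4B led in both groups, while TUBB came after TUBB4B and TUBA1B in MGO cells and directly after TUBB4B in untreated cells. TUBB6 and TUBA1C overlapped between libraries in both groups, and no other neighbours in either order did. With overlapping genes left out, 56.4% of the 100-base windows of TUBB2A and 37.2% of those of TUBA1B occurred in another gene. For TUBB and TUBB4B it was 3.80% and 2.86%. How reads from such windows were counted is unknown here, so the order and the pool shares below may depend on it.

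The make-up of the tubulin pool differed as well. TUBB held 15.7%, 15.3% and 15.5% of the counts on the 10 genes in MGO libraries 1, 3 and 4, against 42.3%, 43.2% and 42.4% in untreated libraries 1, 2 and 4. TUBB4B held 33.8% ± 0.560 in MGO cells and 25.5% ± 0.113 in untreated cells, so it led the pool by counts in MGO cells and TUBB did in untreated cells (SD, n = 3 each). Per kilobase of exon, the TUBB share was 9.43% in MGO cells and 29.5% in untreated cells, and the TUBB4B share 42.2% in MGO cells and 36.1% in untreated cells. The ratio of TUBB4B to TUBB counts was 2.18 ± 0.0231 in MGO cells and 0.597 ± 0.0086 in untreated cells (SD, n = 3 each).

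The other 8 members each took a larger share of the pool in MGO cells, including the 6 whose own levels were lower there. The ratio of summed alpha to summed beta counts was 0.534 ± 0.0079 in MGO cells and 0.280 ± 0.0030 in untreated cells, and per kilobase of exon 0.518 ± 0.0071 in MGO cells and 0.319 ± 0.0023 in untreated cells (SD, n = 3 each). Within the alpha pool the make-up moved less: TUBA1A held 27.9% in MGO cells and 31.1% in untreated cells, TUBA1B 49.9% in MGO cells and 48.3% in untreated cells, and TUBA1C 21.9% in MGO cells and 20.5% in untreated cells. Shares within a library do not depend on how libraries are scaled to each other.

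**Figure D2:**
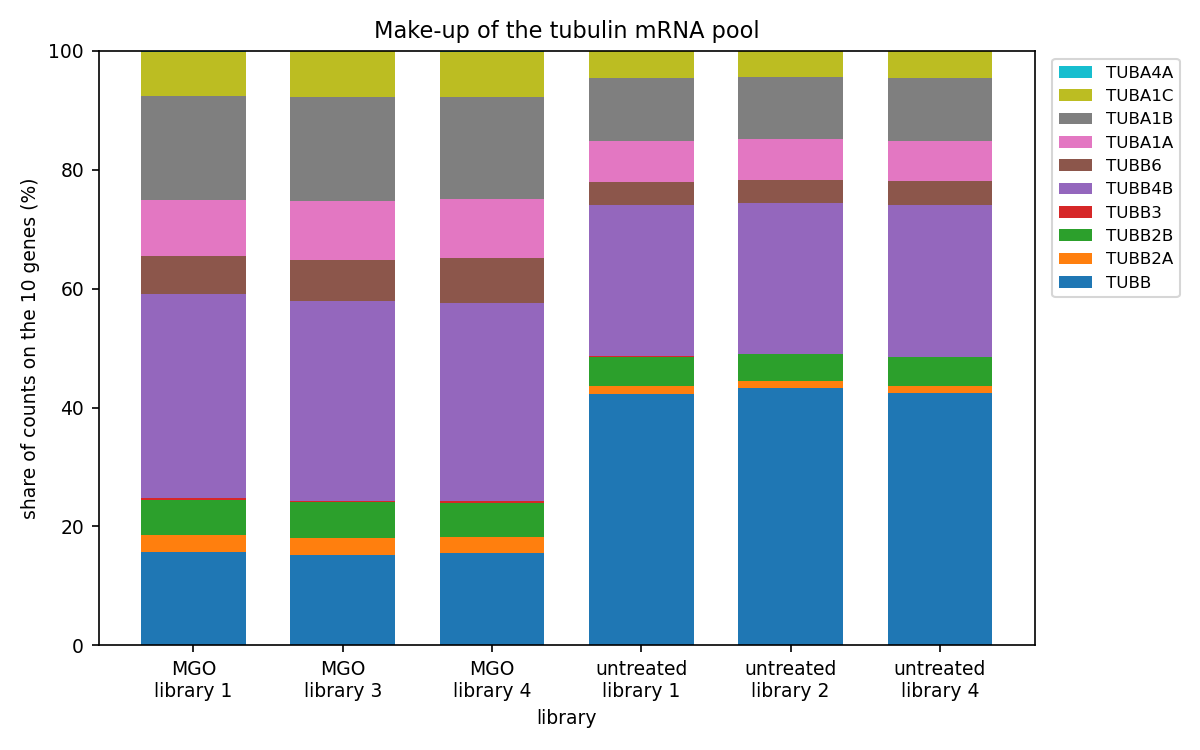
Share of the counts on the 10 tubulin genes (%, vertical axis) held by each gene in each of the 3 MGO and 3 untreated libraries, as stacked bars from 0 to 100%. The blue TUBB segment at the bottom is 15.3% to 15.7% in MGO libraries and 42.3% to 43.2% in untreated libraries, and the purple TUBB4B segment 33.3% to 34.4% in MGO libraries and 25.4% to 25.6% in untreated libraries.

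**Figure D3:**
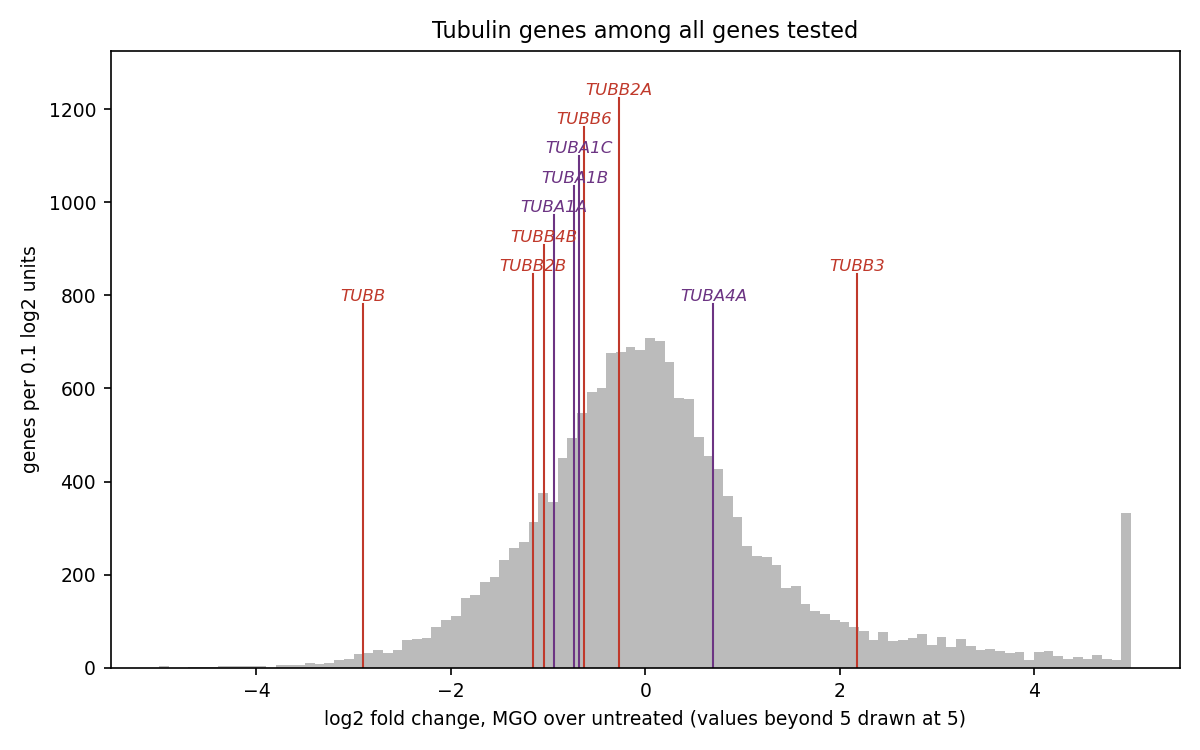
Histogram of the log2 fold change (MGO over untreated, horizontal axis) of the 17415 genes tested, counted per 0.1 log2 units and with values beyond 5 drawn in the end bars, with lines at the 10 tubulin genes (beta in red, alpha in purple). TUBB lies in the left tail at -2.91, TUBB3 on the right at 2.18, and 7 of the others between -1.15 and -0.27, inside the bulk of all genes.

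Depth and mitochondrial share differed between the groups. With the untreated libraries thinned to the mean MGO depth, the log2 fold change was -2.86 for TUBB, -0.997 for TUBB4B and 2.22 for TUBB3. The MGO library with the highest mitochondrial share, library 1, was the lowest of the 3 MGO libraries for all 8 members called lower. Without both libraries numbered 1, the log2 fold change was -2.92 for TUBB, -1.05 for TUBB4B, -0.57 for TUBB6 and 2.24 for TUBB3. The remaining libraries still differed in mitochondrial share, with 6.00% and 5.34% in MGO libraries 3 and 4 and 4.20% and 4.28% in untreated libraries 2 and 4, so the part of that share in the tubulin values was not tested.

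**Figure D4:**
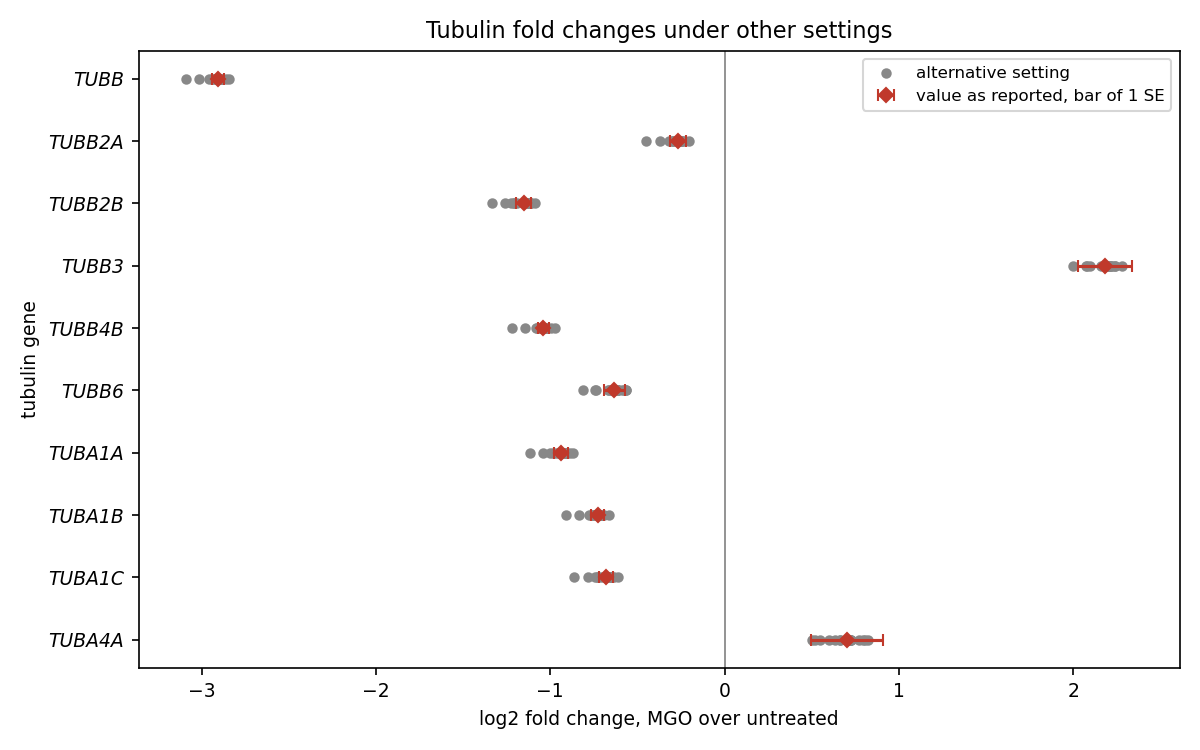
Log2 fold change (MGO over untreated, horizontal axis) of each tubulin gene, as reported with a bar of 1 SE (red diamonds) and under other scalings, filters, tools and left-out libraries (grey points). No grey point crosses 0 for any gene, and those of TUBB stay far left of the other 9 genes.

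Reads of processed copies could add to the parent genes, and counts on other rows cannot show how many did. The other tubulin-named rows were summed for scale only. All 24 rows together held 0.744% to 0.807% of the members' counts in MGO libraries and 0.855% to 0.865% in untreated libraries. Of these rows, 9 were at 0 in all 6 libraries. The sum includes TUBB4A, a protein-coding gene, with 353 counts over the MGO libraries and 3009 over the untreated libraries. Of the 100-base windows of TUBB, 3.80% occurred in a gene that does not overlap its exons, always the processed pseudogene TUBBP1. TUBBP1 had 0.387 ± 0.150 CPM in MGO cells and 2.56 ± 0.382 CPM in untreated cells (log2 fold change -2.74, edgeR adjusted p = 4.40e-11, SD, n = 3 each), far under the level of TUBB, and reads of TUBB placed there cannot be told apart from its own. TUBBP5, a pseudogene on chromosome 9, had 4.90 ± 0.427 CPM in MGO cells and 13.0 ± 0.569 CPM in untreated cells (log2 fold change -1.41, edgeR adjusted p = 5.79e-15, SD, n = 3 each).

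Of the 9 further genes whose chain starts like that of the members, 8 had rows in the tables and 3 passed the filter. TUBB4A, a beta isotype of brain (chr19:6494319-6502848, minus strand), had 5.42, 6.55 and 6.32 CPM in MGO libraries 1, 3 and 4, against 21.6, 21.0 and 23.5 CPM in untreated libraries 1, 2 and 4. It fell 3.60-fold (log2 fold change -1.85, SE 0.0833, edgeR quasi-likelihood adjusted p = 2.80e-19), with no overlap between the groups. None of its 100-base windows occurred in a gene that does not overlap its exons. Those exons share 296 bases with AC010503.2 and 520 bases with AC010503.1, both on the opposite strand and not analysed here. TUBA3D, an alpha gene best known from testis, had 2 to 14 counts in MGO libraries and 5 to 17 in untreated libraries, with overlapping groups (log2 fold change 1.12, edgeR adjusted p = 0.0827). TUBB1, the platelet beta isotype, had 3 to 9 counts in MGO libraries and 12 to 21 in untreated libraries (log2 fold change -0.06, edgeR adjusted p = 0.897), and at this depth no difference was detectable.

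The promoters were looked at for letters that the members share. RefSeq's GRCh38.p14 table holds 15 windows of 300 bases, 250 before to 50 after a start, for the 10 members. The windows of TUBB (chr6:30720102-30720401, plus strand) and TUBB3 (chr16:89923092-89923391, plus strand) are shown as those of the members with the largest difference in each direction. Capitals mark every match, on either strand, to the CCAAT box (CCAAT), the GC box (GGGCGG), the TATA box (TATAAA) and the core of the cAMP response element (TGACG).
TUBB: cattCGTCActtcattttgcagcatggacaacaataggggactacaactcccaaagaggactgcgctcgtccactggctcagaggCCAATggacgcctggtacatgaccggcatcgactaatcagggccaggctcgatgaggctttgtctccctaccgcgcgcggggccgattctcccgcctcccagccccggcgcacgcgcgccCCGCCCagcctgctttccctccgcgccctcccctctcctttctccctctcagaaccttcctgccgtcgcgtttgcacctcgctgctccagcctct
TUBB3: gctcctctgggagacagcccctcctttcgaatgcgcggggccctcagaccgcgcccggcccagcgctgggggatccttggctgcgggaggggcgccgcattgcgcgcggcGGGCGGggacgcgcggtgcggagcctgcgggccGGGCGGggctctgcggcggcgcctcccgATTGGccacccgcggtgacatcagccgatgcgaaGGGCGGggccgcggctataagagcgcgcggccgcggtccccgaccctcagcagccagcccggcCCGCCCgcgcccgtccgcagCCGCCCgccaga
The matches in these windows do not overlap each other. CCAAT, the letters bound by NF-Y, was in 9 of the 15 windows (60%) and in 7 members, where 34.6% of all 35116 windows held it. The TUBA1C windows that start at 49227676 and 49227769 overlap and hold the same CCAAT match. GGGCGG, a GC box, was in 9 windows (60%) and 8 members, beside 44.95% of all windows. Members with several windows have more chances of a match, and no share per gene was computed over all genes. TATAAA was in 1 window, that of TUBB2A, beside 11.5% of all windows, and TGACG was in 4 windows (26.7%), beside 24.6%. Both TUBB, lower in MGO cells, and TUBB3, higher, held CCAAT and GGGCGG in the windows shown. The other window of TUBB (chr6:30721388-30721687) held only GGGCGG, and that of TUBB3 (chr16:89921675-89921974) held no match. These matches describe letters and not sites in use.

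Genes that read and remove tubulin mRNA were called about as often as genes in general. Of the 13 genes of TTC5, SCAPER and CCR4-NOT, 6 rose, 5 fell and 2 missed the threshold (median log2 fold change 0.07). Over all tested genes 41.8% rose and 41.2% fell, 83.1% in all, with a median of 0.01, so the split of these 13 is near that of all genes and is not read as a result about them. TTC5, which binds the nascent tubulin chain, had 30.02 ± 0.193 CPM in MGO cells and 40.0 ± 0.732 CPM in untreated cells and fell (log2 fold change -0.41, edgeR adjusted p = 7.13e-09). SCAPER, the adaptor between TTC5 and CCR4-NOT, had 27.9 ± 1.33 CPM in MGO cells and 17.2 ± 1.34 CPM in untreated cells and rose (log2 fold change 0.70, edgeR adjusted p = 1.36e-11). CNOT11, the CCR4-NOT subunit that SCAPER contacts, fell slightly, with 81.1 ± 3.62 CPM in MGO cells and 96.5 ± 2.06 CPM in untreated cells (log2 fold change -0.25, edgeR adjusted p = 1.32e-06, SD, n = 3 each). Among the other listed genes, CNOT4, a ubiquitin ligase, rose 3.63-fold, CNOT3 of the NOT module 2.41-fold and CNOT10, the partner of CNOT11, 2.19-fold. The deadenylase CNOT7 fell 1.90-fold.

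Of the 13 tubulin folding cofactors and prefoldin subunits, 6 rose, 5 fell and 2 missed the threshold (median log2 fold change 0.05), which is near the 41.8% and 41.2% of all tested genes that rose and fell. TBCD, which holds beta tubulin while the heterodimer is put together, had 106 ± 4.84 CPM in MGO cells and 211 ± 3.52 CPM in untreated cells and fell 1.99-fold (edgeR adjusted p = 1.56e-20, SD, n = 3 each). TBCA, which captures beta tubulin, fell 1.29-fold. TBCE, the alpha-binding cofactor, rose 1.73-fold and PFDN1, a subunit of prefoldin, rose 1.79-fold. Of the 13 genes for gamma, delta and epsilon tubulin and the gamma-tubulin complex, 7 rose, 5 fell and 1 missed the threshold (median 0.13), beside the same 41.8% and 41.2% of all tested genes. TUBG1, the main gamma-tubulin gene, had 57.8 ± 1.91 CPM in MGO cells and 155 ± 4.23 CPM in untreated cells, while TUBG2, its close paralog, had 37.2 ± 2.12 CPM in MGO cells and 11.5 ± 0.634 CPM in untreated cells (SD, n = 3 each). TUBG1 thus fell 2.68-fold (edgeR adjusted p = 3.20e-24) and TUBG2 rose 3.24-fold (edgeR adjusted p = 1.12e-21). TUBE1, the epsilon tubulin of centrioles, rose 2.81-fold, and MZT1, a small subunit of the gamma-tubulin complex, fell 1.45-fold.

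Of 20 tubulin-modifying enzymes, 17 were tested, 7 rose, 6 fell and 4 missed the threshold (median 0.03), beside 41.8% of all tested genes that rose and 41.2% that fell. Those that take off the tyrosine at the end of alpha tubulin were the lowest of the list: VASH1 had 3.41 ± 0.679 CPM in MGO cells and 25.7 ± 0.534 CPM in untreated cells and fell 7.49-fold (edgeR adjusted p = 4.27e-23, SD, n = 3 each), and VASH2 had 3.62 ± 0.352 CPM in MGO cells and 15.9 ± 0.273 CPM in untreated cells and fell 4.40-fold (edgeR adjusted p = 1.74e-19). Their partner SVBP fell 2.15-fold and TTL, which puts the tyrosine back, fell 2.17-fold, both named after their values were seen. TTLL1, which fell 2.88-fold, and TTLL3, which rose 3.12-fold, differed more than SVBP and TTL and were also named after their values were seen. TTLL12, of the tubulin tyrosine ligase-like family, fell 2.11-fold, and TTLL5, a polyglutamylase, rose 2.03-fold.

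Of 16 destabilising and severing proteins, 14 were tested, of which 6 rose and 8 fell (median -0.13), beside 41.8% of all tested genes that rose and 41.2% that fell. KATNA1, the catalytic subunit of katanin, had 134 ± 2.32 CPM in MGO cells and 48.1 ± 0.979 CPM in untreated cells and rose 2.78-fold (edgeR adjusted p = 1.86e-25, SD, n = 3 each). Among the depolymerising kinesins, KIF24, KIF18A and KIF18B rose 3.72-fold, 2.22-fold and 1.94-fold, KIF2C rose 1.73-fold and KIF2A fell 1.68-fold, the last 2 named after their values were seen. STMN4, a stathmin named after its values were seen, had the widest difference of the list, 19.2-fold higher on 42 to 84 counts in MGO libraries and 7 to 8 in untreated libraries. Of 24 stabilising and plus-end proteins, 23 were tested, of which 8 rose and 15 fell (median -0.37), beside the same 41.8% and 41.2% of all tested genes. All-gene shares are given for scale, and the difference of a list from them was not tested. MAP1S, a microtubule-associated protein, had 190 ± 9.88 CPM in MGO cells and 69.7 ± 1.24 CPM in untreated cells and rose 2.72-fold (edgeR adjusted p = 1.83e-24, SD, n = 3 each). MAP7D1 and CAMSAP3, which binds minus ends, rose 1.96-fold and 1.87-fold, and DCLK1, a kinase with doublecortin domains, fell 2.49-fold.

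**Figure D5:**
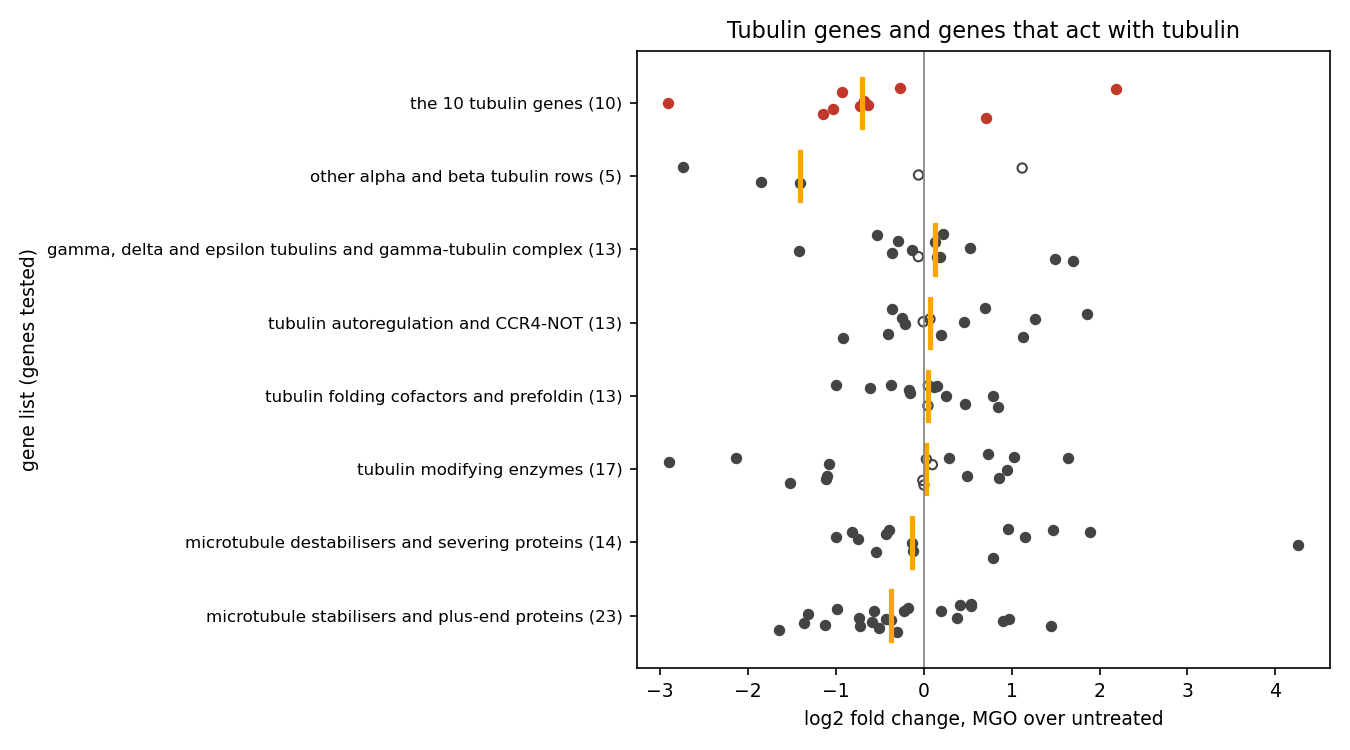
Log2 fold change (MGO over untreated, horizontal axis) of the 10 tubulin genes (red, shown with no test) and of the tested genes of 7 related lists (filled, adjusted p under 0.05; open, not passed), with an orange bar at each median. The medians are -0.70 for the tubulin genes and -1.41 for the 5 other tubulin rows, and from -0.37 to 0.13 for the other lists.

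The members' mean profile over the 6 libraries, as centred log2 CPM, was compared with those of 10857 other genes of at least 5 CPM by Euclidean distance. FBXL5, the iron-sensing ligase subunit, was closest at a distance of 0.0299, followed by HOXD10, a homeobox factor, at 0.0601, SUMO3, a small modifier, at 0.0617, GYG1, the primer of glycogen, at 0.0633 and PDCL, a phosducin-like cochaperone, at 0.0650. All 5 fell by 1.43-fold to 1.49-fold, FBXL5 with 35.8 ± 0.817 CPM in MGO cells and 52.5 ± 1.85 CPM in untreated cells (SD, n = 3 each). Each member lay farther from the members' own mean than these 5 genes did, with distances of 0.188 for TUBA1C, 0.210 for TUBB6, 2.88 for TUBB and 3.30 for TUBB3 at the ends of the range, which is a description over 6 libraries that fall into 2 groups.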

How the data were processed

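Polyadenylated RNA was sequenced from 6 libraries. The authors deposited unnormalized whole-number counts for each gene symbol. The submitters' processing notes name HTSeq 0.9.1, STAR 2.4, Trim Galore and Picard, and build hg38. The sources used here give neither their settings nor the annotation, nor how strand and reads with several matches were treated.

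All genes were fitted in edgeR 4.0.16 (R 4.3.3) with filterByExpr, TMM scaling, robust glmQLFit and a two-sided glmQLFTest without covariates (4 residual degrees of freedom), with Benjamini-Hochberg adjustment over 17415 genes at 0.05. Levels are TMM-scaled CPM computed here. The 29 rows that carry a date in place of a symbol and the 4 rows with a repeated name are not named. Reads carry no molecular identifiers, so counts are not numbers of independent molecules.

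The members and lists were chosen with earlier results of these data known. Named genes were the members, tested tubulin rows and genes with a tubulin-like start, TTC5, SCAPER and CNOT11, up to 4 called genes of each other list by smallest p, and the 5 nearest profiles. Starts and identities were read from coding sequences. Coordinates and coding sequences are those of GENCODE release 29, whose assembly, GRCh38, is that of hg38. Alternatives were other scalings and filters, DESeq2 1.42.0, limma 3.58.1 voom, no robust shrinkage, a replicate block, thinning and leaving out libraries.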

Additional observations from a re-analysis of the deposited data

How the results depend on the processing

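The 10 members, picked with this contrast known and with groups that do not overlap, had the same direction in 169 of 169 alternatives, which is no independent sign of stability. TUBB3 had no value under the minimum of 1 CPM in every library. Among 37 other named genes, 614 of 618 values kept their direction and their side of the threshold. TUBA3D passed under the replicate block (1.30) and without MGO replicate 3 (1.54). TUBB1 changed sign under the block (0.48) and without MGO replicate 3 (0.22), never passing, with -0.47 to 0.22 over the left-out libraries. With library size as the only scaling, the median of all genes was -0.10, beside 0.01, and the summed log2 ratio of the 10 members was -1.55, beside -1.45. Per kilobase, the pool shares moved to 9.43% in MGO and 29.5% in untreated cells for TUBB, and to 42.2% in MGO and 36.1% in untreated cells for TUBB4B. Leaving out 1 library at a time gave 6947 to 7441 genes higher and 6919 to 7444 lower, -2.96 to -2.90 for TUBB and 0.50 to 0.82 for TUBA4A.

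Only the numbers 1 and 4 occur in both groups, and the labels do not say what a number marks. For that reason the libraries were not treated as pairs. The deviations of same-numbered libraries correlated at 0.02 and -0.01, which are too few pairs to tell whether they share a batch. The library numbered 1 had the highest mitochondrial share of each group. With the replicate block, 6778 genes were higher and 6673 lower, and TUBB stood at -2.90. Depth limits TUBB3, TUBA4A, TUBB1 and TUBA3D, which rest on few counts.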
